A study of Xenopus laevis with 30 samples.

Results

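The response to a morpholino against Sf3b4 was followed in Xenopus laevis animal caps, in RNA libraries prepared without ribosomal RNA depletion. These are 6 of the 12 libraries of the study, from 12 of its 30 sequencing runs, and they were taken by their labelled treatment and preparation with libraries of the same number set as pairs. Total RNA was counted over 49109 gene entries, of which 6284 had enough counts to be tested. All embryos had received mRNA for noggin and for wnt8 at the 2-cell stage, and caps were cut at stage 8 to 9 and cultured for 8 h. The 3 control libraries, called NW, came from such caps, and the 3 libraries called NWS came from caps whose embryos had also received the Sf3b4 morpholino. The groups hold no caps with a control morpholino, so the antisense oligonucleotide as such and its effect on Sf3b4 cannot be told apart. The labels describe RNA taken from individual explants, so a library may stand for 1 cap. A cap is ectoderm isolated from the tissues that would normally signal to it. Run titles number 3 NWS libraries and were followed, although the source names of that group number fewer and put the lanes of library 2 under different replicates.

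Sf3b4 is a subunit of SF3b, the part of the U2 small nuclear ribonucleoprotein that holds the branch point of an intron during splicing. In humans, loss of 1 working copy of SF3B4 causes Nager syndrome, with malformed facial bones that arise from the neural crest. Noggin blocks BMP signals and wnt8 is a Wnt ligand, and together they turn cap ectoderm into neural crest progenitors. In the embryo these signals, with FGF, first set up the neural plate border (pax3, zic and msx genes) and then the crest specifiers (snai2, foxd3 and the SoxE genes sox8, sox9 and sox10). Xenopus laevis is allotetraploid, and the endings L and S mark the copies of a gene, its homeologs.

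The libraries were alike in total count (3499960 to 4339788) and very unlike in usable depth. Between 52.2% and 97.8% of the counts fell on 5 entries, among them LOC108705792 and ccdc50.L. Outside these, NW libraries 1, 2 and 3 had 452462, 94882 and 2042925 counts, and NWS libraries 1, 2 and 3 had 373612, 87172 and 327925. Both libraries numbered 2 were thus the shallowest of their group, and NW library 3 was the deepest of all. Levels are given as CPM, counts scaled to the library size after TMM normalisation, and a floor of 3 counts corresponded to 0.110 CPM in NW library 3 and 2.76 CPM in NW library 2. Floors and zeros cover counting error only. The difference within a pair is log2(CPM + 1) in NWS minus that in NW, which shrinks steps to or from levels near 0.

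Markers of the induced and of other cell types were checked first. The 19 neural crest marker entries (snai2, sox8, sox9, sox10, foxd3, twist1, tfap2a, tfap2b, tfap2e and ets1) summed to 486, 167 and 654 CPM in NW libraries 1, 2 and 3 and to 409, 47.6 and 66.6 CPM in NWS. NWS library 1 therefore carried crest markers at the level of the NW group, and NWS libraries 2 and 3 lay below all NW libraries. In bulk caps, fewer crest cells and less crest RNA per cell cannot be told apart. The 7 neural plate border entries summed to 55.9, 110 and 156 CPM in NW and to 110, 116 and 147 CPM in NWS, which overlap. Epidermal markers (8 entries) summed to 107, 24.8 and 12.9 CPM in NW and to 92.5, 28.4 and 5.92 CPM in NWS. This sum leaves out krt5.7.L, which the reference table names krt7.L. That entry stood at 41.3, 54.3 and 2.87 CPM in NW and at 37.3, 2.75 and 3.46 CPM in NWS. It was thus far lower in NWS in pair 2, unlike the sum. Neural markers (7 entries) ranged from 25.8 to 63.5 CPM in NW and from 26.4 to 78.7 CPM in NWS. Mesoderm, endoderm and multiciliated or ionocyte markers were near 0. None of their 9, 11 and 12 entries had enough counts to be tested. Of these, 2, 7 and 4 had no count in any of the 6 libraries, sox17a.S, gata4.L and foxi1.L included. The exception was NW library 1, whose mesoderm sum was 14.1 CPM, mostly from actc1.L, actc1.S and tbx6.S. The part of cell makeup in the differences below was not tested.

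The targeted gene was read next. sf3b4.L stood at 3.65, 10.1 and 6.41 CPM in NW libraries 1, 2 and 3 and at 11.3, 3.66 and 9.13 CPM in NWS. It was higher in NWS in pairs 1 and 3 and lower in pair 2, with a fitted log2 fold change of 0.37 ± 0.87 (SE, n = 3 pairs, edgeR adjusted p = 1.00). sf3b4.S stood at 2.92, 11 and 8.66 CPM in NW and at 9.47, 6.41 and 4.2 CPM in NWS (-0.05 ± 0.90, edgeR adjusted p = 1.00). The groups overlapped at both copies, and the levels rest on 4 to 235 counts per library. The labels do not give the morpholino's target site, so the mRNA level does not check the knockdown.

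Of the other 31 tested entries for SF3b, SF3a and U2 proteins, none was called by paired edgeR (adjusted p under 0.05). The whole list of 33 had 16 entries higher and 17 lower, a median log2 fold change of -0.02 and pair medians of 0.13, 0.20 and -0.11. No entry of the list reached an unadjusted edgeR p under 0.05. Over all entries tested, 0.223% were called and 5.11% reached that unadjusted p. In a list of 33, the absence of calls therefore says little about these genes. Among genes for SF3b subunits, sf3b1.L gave 1.22 ± 0.77 and sf3b1.S -0.34 ± 0.60, sf3b3.L -0.88 ± 0.69 and sf3b3.S -1.40 ± 0.77 (log2 fold change ± SE). The most abundant tested members of the list were ddx46.L (-0.36 ± 0.55), sf1.S (0.70 ± 0.60) and sf3a1.L (-0.07 ± 0.56).

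Levels of the injected messages' genes were uneven. nog.L stood at 7.13, 0 and 1.99 CPM in NW and at 11.1, 7.32 and 21.0 CPM in NWS (log2 fold change 2.50 ± 0.93, edgeR adjusted p = 0.509). wnt8a.L stood at 0, 0 and 0.589 CPM in NW and at 3.22, 2.75 and 8.39 CPM in NWS (4.52 ± 1.42, edgeR adjusted p = 0.230). Each was higher in NWS in all 3 pairs and neither was called. Whether these entries count the injected mRNA, the embryos' own transcripts or both is not known from the files, and no dose is given. nog.S and wnt8a.S had too few counts to be tested.

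With libraries of the same number paired, 14 of 6284 entries (0.223%) were called at an edgeR adjusted p under 0.05, 7 higher and 7 lower in NWS. Below, "called" with no other tool named refers to this paired edgeR test. The lower entries were the crest progenitor gene id3.L, the crest specifier sox10.S, the adhesion gene tns1.L, the transcriptional corepressor genes arid4b.S and nrip1.L and the unnamed Xelaev18022166m and Xelaev18022167m. Higher in NWS were wnt7c.L, which codes for a Wnt ligand, vgll3.L for a TEAD cofactor, dusp5.L for a MAP kinase phosphatase, cldn4.L for a claudin and hist2h3c.L for a histone, with phldb3.S and LOC108711332. Over all entries the median log2 fold change was -0.02, with 3074 higher and 3210 lower. An unadjusted p under 0.05 was reached by 321 entries (5.11%), 178 higher and 143 lower. The same direction in all 3 pairs was seen at 1540 entries (24.5%), and groups that did not overlap at 503 (8.00%). Among the 14 called entries, 14 kept 1 direction in all pairs and 13 had groups that did not overlap. The call itself favours such entries, so these counts are no separate evidence.

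How many entries were called depended on the model. Without pairing, edgeR called 1 entry (0.0159%), Xelaev18022166m, while limma-voom called 1 and DESeq2 19. With pairing, DESeq2 called 28 entries (13 of the 14 among them), limma-voom 8 and limma on log2(CPM + 1) 4. The paired edgeR fit gave every entry of a given level the same spread, with a biological coefficient of variation of 0.591. A bias-adjusted version of the edgeR quasi-likelihood test, added after the data had been seen, estimated a spread per entry and called 0 entries, with 256 at an unadjusted p under 0.05 and Xelaev18022166m at an adjusted p of 0.0692. Without pair 1 the paired count was 6, without pair 2 it was 10 and without pair 3 it was 17.

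**Figure D1:**
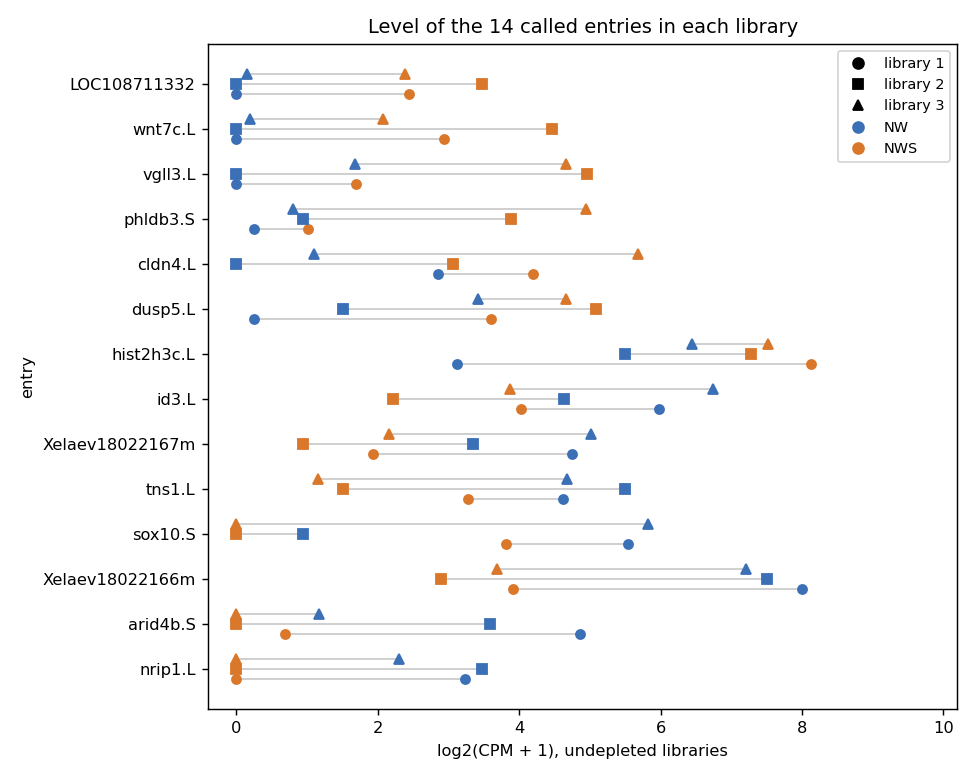
Level of each called entry in the 6 undepleted libraries, as log2(CPM + 1) on the horizontal axis. Colours mark NW (blue) and NWS (orange), shapes the library number, and grey lines join libraries of the same number; sox10.S is the entry whose groups overlap, since NW library 2 stood at 0.920 CPM and NWS library 1 at 13.1 CPM.

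**Figure D2:**
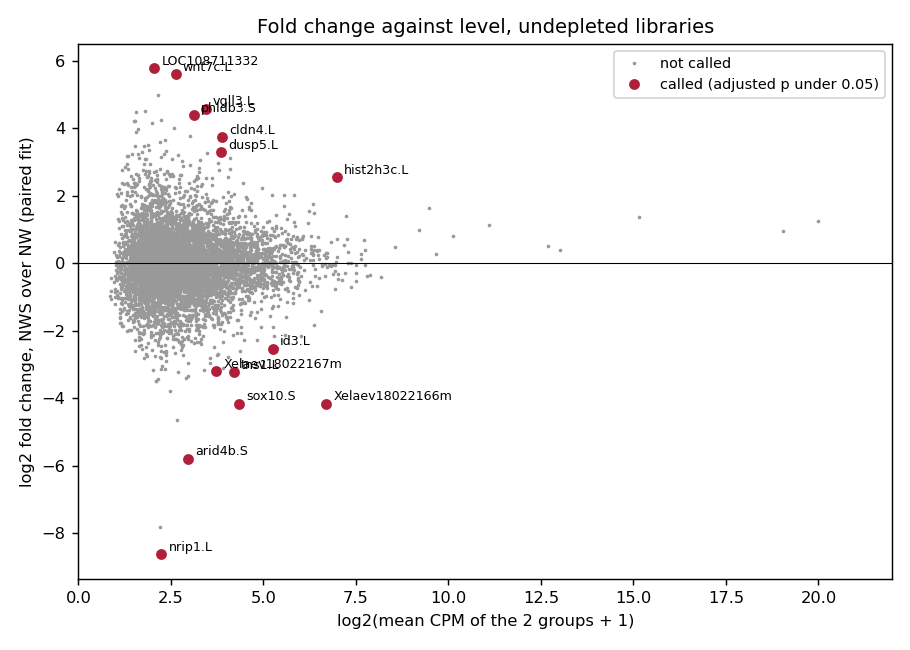
Paired log2 fold change of the 6284 tested entries, on the vertical axis, against log2 of the mean CPM of both groups plus 1. The 14 called entries are labelled, and hist2h3c.L, Xelaev18022166m and id3.L lie at the highest levels among them; the value of nrip1.L depends on the prior count because its NWS libraries had no count.

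The entry with the smallest adjusted p was Xelaev18022166m, a gene model that the files and the reference table leave unnamed. It stood at 255, 181 and 147 CPM in NW libraries 1, 2 and 3 and at 14.1, 6.41 and 11.8 CPM in NWS. No NWS library came near the NW range, and the ratio of group means was 18-fold. The paired log2 fold change was -4.16 ± 0.59 (edgeR adjusted p = 1.74e-08), and pairs 1, 2 and 3 gave -4.08, -4.62 and -3.52. This was the only one of the 14 that stayed called whichever pair was left out, at log2 fold changes of -4.46 to -3.84. Of the others, 6 stayed called in 1 of these fits and 7 in none. It also stayed called under 12 of 13 other settings, all but the bias-adjusted test.

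Gene models with the next identifiers also had their values below those of NW. Xelaev18022167m stood at 25.8, 9.20 and 31.4 CPM in NW and at 2.82, 0.915 and 3.46 CPM in NWS (log2 fold change -3.20 ± 0.80, edgeR adjusted p = 0.0305). The NWS values of libraries 1 and 3 rest on 14 counts each and that of library 2 on 1. Xelaev18022168m, looked up after these values had been seen, stood at 3.47, 12 and 20.4 CPM in NW and at 0.403, 0 and 2.96 CPM in NWS (-3.39 ± 1.01, edgeR adjusted p = 0.150, unadjusted p = 7.8e-04). It was not called. Consecutive identifiers may be neighbours or pieces of 1 transcript, which was not tested because no genome was used here.

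Among crest regulators, id3 codes for a helix-loop-helix protein that binds and blocks basic helix-loop-helix factors, responds to BMP and in Xenopus keeps crest progenitors uncommitted. id3.L stood at 61.9, 23.9 and 106 CPM in NW and at 15.3, 3.66 and 13.6 CPM in NWS, with all NWS libraries below all NW libraries. The log2 fold change was -2.54 ± 0.60 (edgeR adjusted p = 0.0167), and pairs 1, 2 and 3 gave -1.95, -2.42 and -2.87. Its homeolog id3.S had 44.0, 19.3 and 139 CPM in NW and at 28.6, 2.75 and 7.16 CPM in NWS. Groups overlapped there, since NWS library 1 stood above NW library 2, and the fold change of -2.52 ± 0.66 just missed the threshold (edgeR adjusted p = 0.0552). Both copies were lower in every pair.

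sox10 is a SoxE transcription factor of premigratory and migrating crest. sox10.S stood at 45.7, 0.920 and 55.8 CPM in NW and at 13.1, 0 and 0 CPM in NWS. NW library 2 held a single count, so the pair of libraries 2 says little, and pair 3 (1516 counts against 0) carried most of the difference. The log2 fold change was -4.16 ± 0.94 (edgeR adjusted p = 0.0126), but -1.96 without pair 3 (edgeR adjusted p = 0.887), and DESeq2 gave an adjusted p of 0.976. sox10.L stood at 16.8, 0.920 and 37.1 CPM in NW and at 19.7, 0 and 0.247 CPM in NWS. Its direction was up in pair 1 and down in the others (-2.72 ± 1.12, edgeR adjusted p = 0.650).

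Across the neural crest specifier list, 26 of 31 tested entries were lower in NWS and 5 higher, beside 3210 lower of 6284 over all entries. The 2 called, both lower, stand beside 0.223% called over all entries. The median log2 fold change was -1.56, against -0.02 over all entries. It was -0.98 without pairing, -2.30 without pair 1 and -0.25 without pair 3. The pairs differed widely: their medians were 0.02, -0.84 and -2.73 for pairs 1, 2 and 3. The libraries numbered 1 thus showed no shift of the list, and those numbered 3 the largest. Outside sox10 and id3, unadjusted p under 0.05 was reached by snai2.L (-2.15 ± 0.64), ets1.L (-2.26 ± 0.75), foxd3.S (-3.23 ± 1.15), sox8.L (-2.27 ± 0.76), sox8.S (-3.10 ± 1.17), tfap2a.S (-1.88 ± 0.62), tfap2a.L (-1.89 ± 0.69), tfap2e.L (-2.66 ± 1.09), tfap2b.S (-1.56 ± 0.65) and sox5.S (-1.68 ± 0.75). None of these was called. The members above 0 were c3.L (1.41 ± 0.55), a complement gene that in Xenopus crest acts in co-attraction, tfap2c.S (1.40 ± 0.64), sox9.L, myc.S and snai1.L.

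Genes that act just before the specifiers leaned the other way. In the neural plate border list 9 of 12 tested entries were higher, beside 48.9% of all entries. The median was 0.75, with pair medians of 0.90, 0.40 and 0.25. Paired edgeR called none of the 12, which says little at a share of 0.223% called over all entries. zic2.S gave 1.40 ± 0.68, pax3.L 1.14 ± 0.72 and zic1.L 0.74 ± 0.62, while msx1.S gave -1.34 ± 0.78.

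In the Wnt pathway, a ligand gene was called higher, and the target genes sp5.L and axin2.L lay just past the threshold. wnt7c.L, a Wnt ligand gene, stood at 0, 0 and 0.147 CPM in NW and at 6.65, 21.0 and 3.21 CPM in NWS. It was close to absent from all NW libraries, where 0, 0 and 4 counts were found, and had 13 to 33 counts in each NWS library (log2 fold change 5.6 ± 1.27, edgeR adjusted p = 0.0126). With both preparations summed it was not called (3.71, edgeR adjusted p = 0.134). Its homeolog wnt7c.S had no count in any library. Besides wnt8a.L, the other tested ligand entries were wnt1.L (0.18 ± 0.63) and wnt1.S (-1.02 ± 1.31).

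Wnt target genes were mostly higher, 15 of 20 tested entries, beside 48.9% of all entries. The median was 1.09 (0.59 without pair 1), with pair medians of 1.35, 1.02 and 0.27. Paired edgeR called none of them, beside 0.223% over all entries. sp5.L, a direct Wnt target coding for an Sp transcription factor, stood at 0, 2.76 and 0.773 CPM in NW and at 6.85, 26.5 and 5.68 CPM in NWS (3.77 ± 1.00, edgeR adjusted p = 0.0559). axin2.L, a target that feeds back to inhibit the pathway and is listed under its older name xarp.L, stood at 11.7, 34 and 22.8 CPM in NW and at 54.6, 102 and 110 CPM in NWS. At both genes all NWS libraries were above all NW libraries, and the pairs gave 2.13, 1.55 and 2.22 on the log2 scale for axin2.L (2.03 ± 0.55, edgeR adjusted p = 0.0697). Paired edgeR called neither, and paired DESeq2 called both, at adjusted p of 0.0260 for sp5.L and 0.00879 for axin2.L. Paired limma-voom called neither (adjusted p of 0.120 and 0.0928). Unpaired edgeR did not call them either (0.601 and 0.820), nor did paired edgeR on both preparations summed (0.134 and 0.132). fzd7.L, a Wnt receptor gene, gave 2.06 ± 0.69, and nkd1.S, rnf43.L, ccnd1.S, fzd7.S and notum.S were below 0. caprin2.S, whose human homolog codes for an RNA-binding protein that promotes Wnt signalling, stood at 41.8, 41.4 and 18.9 CPM in NW and at 4.83, 1.83 and 10.1 CPM in NWS (-2.61 ± 0.69, edgeR adjusted p = 0.0559).

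In the BMP and Id list 9 entries were tested, 4 higher and 5 lower, with a median of -0.07 that turned to 0.82 without pairing. Apart from id3 and nog.L, id2.S gave -2.76 ± 1.40, bmpr1a.S 1.19 ± 0.97 and chrd.1.S (entry chrd.L) 1.36 ± 1.26. None of these 3 was called.

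dusp5 codes for a nuclear phosphatase of the MAP kinase ERK that FGF signals induce. dusp5.L stood at 0.183, 1.84 and 9.69 CPM in NW and at 11.1, 32.9 and 24.4 CPM in NWS, groups that did not overlap (log2 fold change 3.28 ± 0.82, edgeR adjusted p = 0.0305). Of the 16 tested FGF and MAP kinase feedback entries 9 were higher and 7 lower, with a median of 0.48 and pair medians of 0.99, -0.18 and 0.23. spry1.L, a feedback inhibitor of FGF signals, gave 2.51 ± 1.28 and etv1.L, an ETS factor, 1.55 ± 0.89, whereas spred2.L gave -1.22 ± 0.91. Only dusp5.L of the list was called, beside 0.223% over all entries.

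cldn4 codes for a claudin, a membrane protein of tight junctions. cldn4.L stood at 6.21, 0 and 1.14 CPM in NW and at 17.3, 7.32 and 50.1 CPM in NWS. Each NWS library was above each NW library, with a fitted log2 fold change of 3.73 ± 0.89 (edgeR adjusted p = 0.0167). The step was larger in pair 3 (4.58 on the log2 scale) than in pair 1 (1.35), and that of pair 2 started from 0 counts. Epithelial junction genes were mostly higher, 9 of 12 tested entries with cldn4.L included, beside 48.9% of all entries. The list median was 1.46, with pair medians of 1.46, 0.36 and 0.99. The median was 0.076 without pair 1 and 0.87 without pair 3. Of the genes for the epithelial adhesion molecule EpCAM, epcam.L gave 2.54 ± 0.91 and epcam.S 1.54 ± 0.69, the occludin gene ocln.L 3.24 ± 1.55 and cldn7.L 2.32 ± 1.31. The scaffold genes tjp1.S (-0.15 ± 0.87) and cgn.L (-0.11 ± 0.88) were near 0. In this list cldn4.L alone was called, beside 0.223% over all entries. Epidermal genes did not move with them: 4 of 12 tested entries were higher and 8 lower, with a median of -0.36 (-1.85 without pair 1, -0.02 without pair 2 and 0.22 without pair 3) and pair medians of 0.21, -1.05 and -0.90. The tfap2a copies, which serves both epidermis and crest, had the smallest p of that list.

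Adhesion and cortical actin genes were called in both directions. tns1 codes for tensin, which ties actin to integrins at focal adhesions. tns1.L stood at 23.6, 44.2 and 24.7 CPM in NW and at 8.66, 1.83 and 1.23 CPM in NWS, with no overlap (-3.23 ± 0.74, edgeR adjusted p = 0.0126). phldb3.S, of the pleckstrin homology-like domain family, stood at 0.183, 0.920 and 0.737 CPM in NW and at 1.01, 13.7 and 29.9 CPM in NWS. NWS library 1, with 5 counts, was barely above NW, so its call (4.38 ± 1.12, edgeR adjusted p = 0.0396) rests on NWS libraries 2 and 3. lmo7.L, a gene for a LIM domain protein of the cell cortex, stood at 17.4, 0.920 and 1.07 CPM in NW and at 23.2, 22 and 32.1 CPM in NWS and just missed the threshold (3.11 ± 0.82, edgeR adjusted p = 0.0559, DESeq2 adjusted p = 0.0399). The talin gene tln2.S gave -2.81 ± 0.82, the integrin genes itga5.L 1.21 ± 0.58 and itgb1.L 1.77 ± 0.95, and the fibronectin gene fn1.S 0.02 ± 0.57. Over the 27 tested entries 18 were higher and 9 lower, with a median of 0.12 (-0.15 without pair 2).

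vgll3 belongs to the vestigial-like cofactors of TEAD transcription factors, the partners of YAP in the Hippo pathway. vgll3.L stood at 0, 0 and 2.21 CPM in NW and at 2.22, 30.2 and 24.4 CPM in NWS. NWS library 1 (11 counts) was at the level of NW library 3 (60 counts), and the other NWS libraries were far above it (4.58 ± 0.98, edgeR adjusted p = 0.00947). Hippo pathway entries were split, 9 of the 17 tested being higher, vgll3.L included, with a median of 0.37. tead4.L gave 1.57 ± 0.68 and amotl2.L 2.1 ± 1.02, neither called, and wwtr1.L, the gene for the YAP relative TAZ, -1.15 ± 1.07.

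A pair of genes for transcriptional corepressors fell close to the counting floor in NWS. arid4b codes for a subunit of the SIN3 histone deacetylase complex. arid4b.S (entry LOC108704885) stood at 28.1, 11 and 1.25 CPM in NW and at 0.604, 0 and 0 CPM in NWS (-5.80 ± 1.31, edgeR adjusted p = 0.0126). In pair 3 it went from 34 counts to 0 at a low level, so the size of that step is not known. arid4b.L was lower in each pair, at 16.1, 31.3 and 5.16 CPM in NW and at 5.24, 4.58 and 3.21 CPM in NWS, and was not called (-1.63 ± 0.77, edgeR adjusted p = 0.856). The remaining ARID and SIN3 entries were on both sides of 0, with a median of -0.12 over all 21.

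nrip1 codes for a corepressor that binds liganded nuclear receptors. nrip1.L stood at 8.41, 10.1 and 3.94 CPM in NW, from 46, 11 and 107 counts, and had no count in any NWS library. Against the mean floor of 3 counts per NWS library it was at least 5.49-fold lower (edgeR adjusted p = 0.0126). nrip1.S did not share this, at 5.12, 3.68 and 7.88 CPM in NW and at 3.63, 0.915 and 4.44 CPM in NWS (-0.92 ± 1.01, edgeR adjusted p = 1.00). The difference between the copies was not tested. Of 27 tested nuclear receptor coregulator entries 16 were higher and 11 lower, with a median of 0.18. Among them nrip1.L alone was called, beside 0.223% over all entries.

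hist2h3c.L, a histone H3 gene, was the most abundant of the entries called higher. It stood at 7.67, 44.2 and 86.4 CPM in NW and at 280, 155 and 183 CPM in NWS (log2 fold change 2.55 ± 0.60, edgeR adjusted p = 0.0167). All NWS libraries were above all NW libraries, but the pairs differed: 5.02, 1.79 and 1.07 on the log2 scale. Without pair 1 the fold change was 1.38 (edgeR adjusted p = 1.00). Of 10 tested core histone entries 5 were higher and 5 lower. h2ax.lS (entry h2afx.L) gave 1.69 ± 0.58, h2bc11.S 1.79 ± 0.63 and h3c13.S (entry hist2h3d.L) -0.71 ± 0.58. Histone genes have many near-identical copies, so the level of any 1 entry is uncertain.

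LOC108711332 has no gene name in the table used here. It stood at 0, 0 and 0.110 CPM in NW and at 4.43, 10.1 and 4.2 CPM in NWS, from 11 to 22 counts per NWS library (5.77 ± 1.44, edgeR adjusted p = 0.0305). The next entries past the threshold included hoxc3.S, a homeobox gene, with 3.65, 17.5 and 0.663 CPM in NW and no count in NWS. Against the mean floor of the NWS libraries, its mean was at least 5.33-fold lower. In pair 3 the NW level lay under the NWS floor of 0.740 CPM, so no step can be read there. The NW mean of hoxc3.S leans on library 2, where 19 counts were found. Its depleted levels were 0, 40.4 and 0.446 CPM in NW libraries 1, 2 and 3 and 0 in NWS. pcdh18.L (LOC108699673), a protocadherin gene, stood at 1.83, 13.8 and 8.73 CPM in NW and at 20.1, 38.4 and 41.5 CPM in NWS (2.37 ± 0.65, edgeR adjusted p = 0.0697). LOC108719216 gave 1.95, 1.82 and 2.11 on the log2 scale in pairs 1, 2 and 3 and an edgeR adjusted p of 0.0750. LOC108696174 gave 2.98 ± 0.81 (edgeR adjusted p = 0.0697) with groups that overlapped. Paired DESeq2 called these last 3 entries, at adjusted p of 0.0296 for pcdh18.L, 0.0108 for LOC108719216 and 0.0260 for LOC108696174. Paired limma-voom called none of them, at adjusted p of 0.180, 0.112 and 0.0694.

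**Figure D3:**
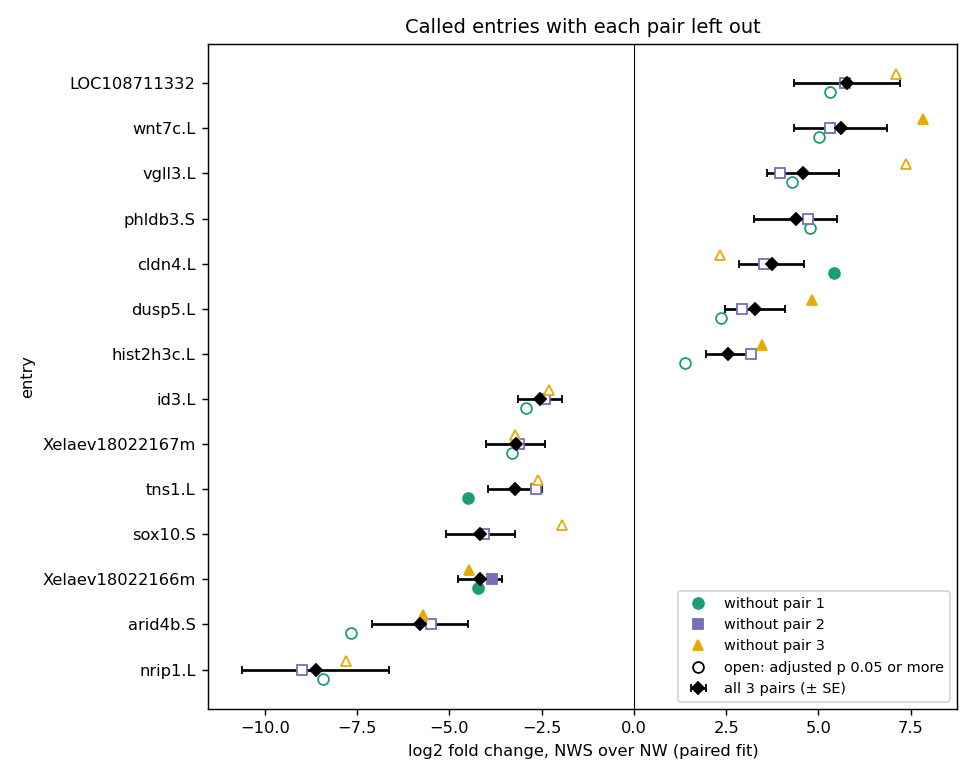
Paired log2 fold change of the called entries from all 3 pairs (black diamonds, bars ± SE) and with pair 1, 2 or 3 left out (coloured shapes; filled where the edgeR adjusted p was under 0.05). Xelaev18022166m alone is filled in all 3 fits, from -4.46 to -3.84; sox10.S without pair 1 and phldb3.S without pair 3 had too few counts to be fitted.

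Leaving out a pair kept the direction of all called entries that could be fitted, while most calls were lost. cldn4.L and tns1.L stayed called without pair 1, and wnt7c.L, dusp5.L, hist2h3c.L and arid4b.S without pair 3. Without pair 2, Xelaev18022166m was the only one of the 14 still called. With 2 pairs a fit has little power, so a lost call does not show that an entry did not differ. The shifts over all entries were not shared between pairs either. Spearman correlations of the log2 differences over the 6284 entries were 0.15 between pairs 1 and 2, -0.04 between pairs 1 and 3 and 0.01 between pairs 2 and 3, a description in which each pair has its own libraries and depths.

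The remaining lists had no called entry, beside 0.223% called over all entries. Among 16 tested neural progenitor entries 9 were higher and 7 lower, with a median of 0.14, the Iroquois genes irx2.L at 2.0 ± 0.67 and irx1.L at 1.76 ± 0.83 and the tubulin gene tubb2b.L at -2.23 ± 1.02. Of 8 tested pluripotency entries 6 were higher, with a median of 0.81 (0.42 without pair 1, 1.30 without pair 2, 1.95 with no filter on low counts) and pair medians of 0.80, 0.67 and 0.47. They included pou5f3.1.S, an Oct4 relative of the frog, at 4.2 ± 1.54, and sall4.L at 1.87 ± 0.86. The 3 most abundant tested members were lin28a.S (0.91 ± 0.71), lin28a.L (-0.49 ± 0.68) and lin28b.L (-0.92 ± 0.91). Of 11 tested p53 target and apoptosis entries 4 were higher and 7 lower, with pair medians of -0.91, -0.57 and 0.63 that disagree in sign. Both copies of the cyclin G gene, ccng1.L (-2.06 ± 0.72) and ccng1.S (-2.0 ± 0.79), were below 0, and tp53inp1.L was above it (2.11 ± 0.71). Placode and cement gland genes had 3 tested entries, mesoderm and multiciliated or ionocyte genes 1 each and endoderm genes 0.

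**Figure D4:**
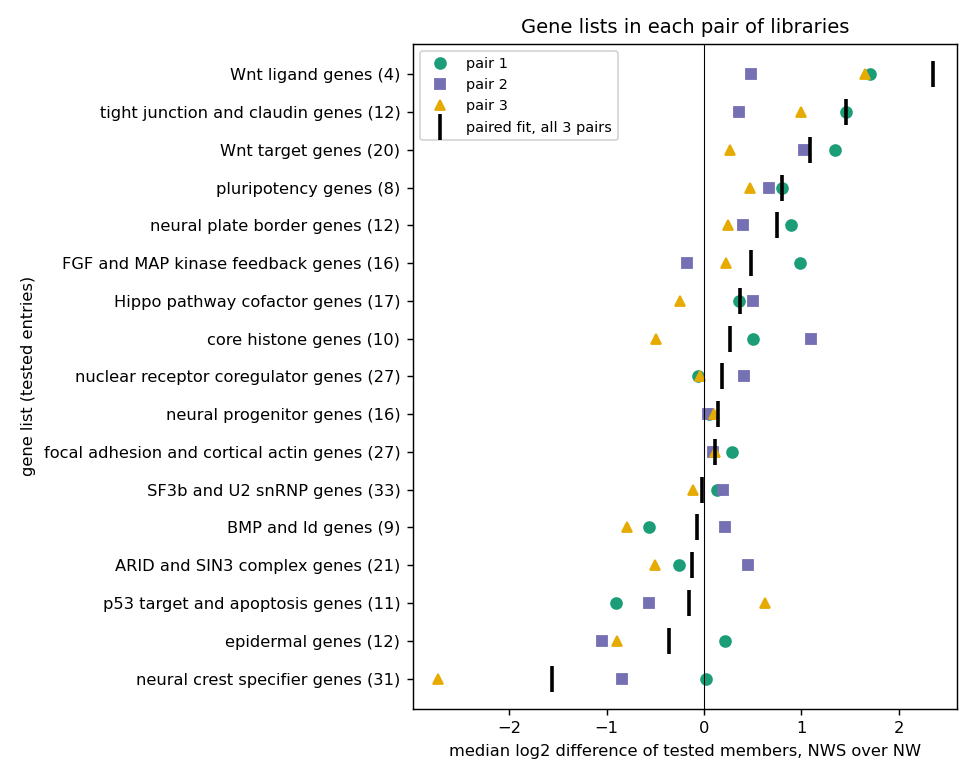
Median log2 difference, NWS over NW, of the tested entries of each list with at least 4 of them, for pairs 1, 2 and 3 (coloured shapes) and from the paired fit of all pairs (black bars). The crest specifier medians run from 0.02 in pair 1 to -2.73 in pair 3. The Wnt target, tight junction and pluripotency medians are above 0 in every pair. So are those of the neural plate border, Wnt ligand, focal adhesion and cortical actin, and neural progenitor lists. The Wnt ligand list had 4 tested entries, wnt7c.L and wnt8a.L among them. Its fitted median was -0.23 without pair 1 and -0.87 with no filter on low counts. The focal adhesion and cortical actin median was -0.15 without pair 2.

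Other homeologs of the called entries gave little further evidence. Of 9 such copies listed, 4 could be tested (arid4b.L, sox10.L, nrip1.S and id3.S). All 4 had the sign of the called copy and none was called. The copies of wnt7c, tns1, cldn4, dusp5 and phldb3 that were not called had at most 16 counts in any library. With the counts of homeologs added up, the paired fit called 20 genes, 11 of them with a copy among the 14.

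**Figure D5:**
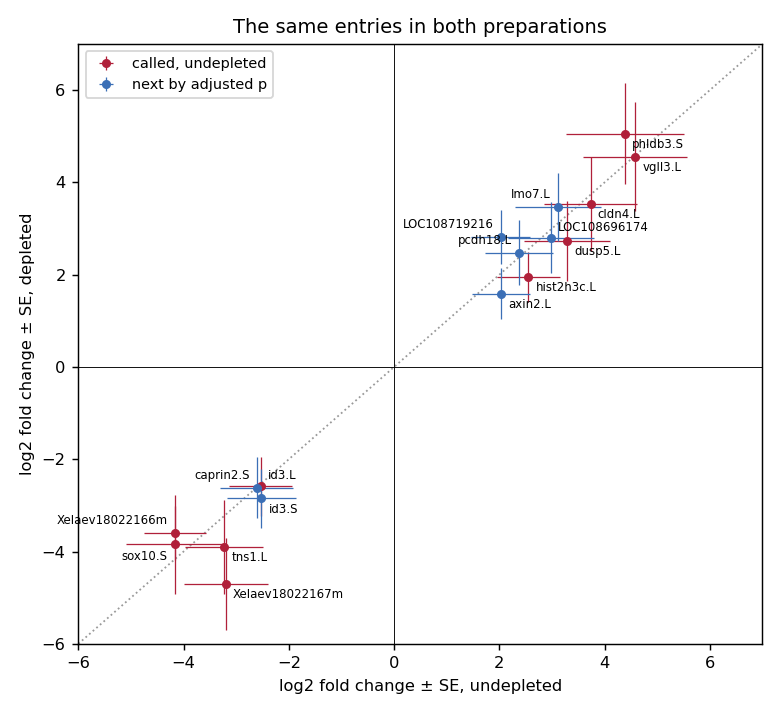
Paired log2 fold change ± SE in the undepleted (horizontal) and depleted (vertical) libraries for the called entries (red) and the next entries by adjusted p (blue) that were tested in both, 1 of which is left out; the dotted line marks equal values. All 10 called entries shown have the same sign in both preparations.

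The study also holds 6 libraries of the same treatments with ribosomal RNA depletion, in which 13 of 6585 entries (0.197%) were called with pairing. Of the 14 entries called here, 10 were tested there and all 10 had the same sign. The entries called in both were id3.L, Xelaev18022166m, Xelaev18022167m and phldb3.S. The labels do not say whether both preparations of a number used the same RNA, so the depleted values are no independent repeat. wnt7c.L, arid4b.S, nrip1.L and LOC108711332 had too few counts there. Their depleted levels were 3.00, 0 and 1.61 CPM in NW against 9.81, 8.60 and 4.60 CPM in NWS for wnt7c.L, and 33.4, 0 and 6.87 CPM against 0 in each NWS library for nrip1.L. nrip1.L thus had no count in any of the 6 NWS libraries of either preparation. Of the next 10 entries, id3.S, lmo7.L, caprin2.S and LOC108719216 were called in the depleted libraries. A test of whether the NWS difference itself differed between preparations called 0 of 13224 entries (0%) by edgeR, with 76 at an unadjusted p under 0.05. In the undepleted paired test, 321 of 6284 entries (5.11%) reached that unadjusted p. With so few small p-values this test could call little, so its 0 calls do not show that the preparations agree.

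Entry lengths recovered from counts and FPKM let abundance be compared per length. In FPKM, the mean NW level of Xelaev18022166m was 19.6 and its NWS level 1.12. The 7 entries called lower had a median length of 5816 bases and the 7 called higher 2672 bases. Over the 5605 of 6284 tested entries with a recovered length the median was 3529 bases, a description with no test.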

How the data were processed

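The upstream tools, per the submitters' processing notes, were bcl2fastq and STAR together with featureCounts and DESeq2, with no roles or versions stated. Build, annotation and strand setting are not given. For each preparation the authors deposited raw counts per entry, 1 column per library, and FPKM values scaled by size factors. Counts were tested with edgeR 4.0.16 (R 4.3.3): TMM, filterByExpr with a minimum count of 10, quasi-likelihood fit with library number and group as terms, and Benjamini-Hochberg adjustment over all entries. CPM uses the TMM effective library size. FPKM served for lengths (32 of 32 entries at or above 100 FPKM were whole within 0.1 base) and for abundance. DESeq2 1.42.0 and limma 3.58.1 were alternatives. The fits were also run on simulated counts with known changes, in which all entries shared the same spread. That run does not cover spreads that differ between entries. Figures used Python 3.11.15 and matplotlib 3.10.9. Mitochondrial entries (15) had 0 counts.

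Run titles gave groups and numbers. Libraries of the same number were set as pairs, although the labels do not say that they belong together. Same-numbered NW and NWS libraries had deviations from their group means that correlated at 0.21, 0.25 and 0.13, other numbers at -0.21 to 0.04. These correlations cannot show pairing, since the shallowest libraries of both groups had the same number and depth alone could make them alike. The paired calls thus rest on an assumption about the libraries. In the paired edgeR fit, p-values and SE rest on a spread between these libraries pooled over entries of like level. They do not use each entry's own spread. Of the entry names, 25709 were symbols of the reference table (assembly Xenopus_laevis_v10.1, names only), 3698 LOC entries were named through their gene ID and 596 through an older symbol. A few symbols thus belong to more than 1 entry, and lists count entries. A name given through an older symbol can end in S where the entry ends in L, as for chrd.L.

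Named entries were those called, sf3b4, nog and wnt8a, other homeologs of called entries and the next 10 by adjusted p. The rule also held, per list, the 3 most abundant tested members, but many of these are not named in the text. Further list members were named after their values were seen, so they are no fair sample of a list. The list medians and counts cover all tested members. The comparison, the lists and these rules were chosen with earlier results of these data known. Reads of homeologs and multicopy genes may be divided or lost between copies. Of the next 10 entries, 1 is not reported here.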

Additional observations from a re-analysis of the deposited data

How the results depend on the processing

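The paired edgeR count of 14 was 14 or 15 with RLE, upper-quartile and TMMwsp scaling and kept all 14 entries in each. It was 1 without the replicate block, 28 with DESeq2, 8 with limma-voom, 26 with both preparations summed and 25 at an adjusted p under 0.1. Added after the data had been seen, bias-adjusted quasi-likelihood gave 0 and limma on log2(CPM + 1) 4. With no low-count filter it was 11 (5 of the 14 among them), at a minimum count of 20 it was 11 (8 of the 14) and at 5 it was 17 (all 14). Robust dispersion gave 19 (all 14) and fits without dominant entries 15 and 14 (12 of the 14 in each). With a pair left out the count was 6 to 17, and unpaired with a library left out 1 to 26: 26 without NW library 1, 25 without NWS library 1. The depleted paired count of 13 was 0 in unpaired edgeR (245 at an unadjusted p under 0.05), where unpaired DESeq2 called 9 and limma-voom 2, and 3 to 9 with a pair left out. The treatment by preparation count was 0 in all fits run. For single entries, 365 of 479 refits kept direction and side of the threshold, 86 lost the call, 24 gained it and 4 reversed: sf3b4.L at -0.42 without pair 1 (range with a pair left out -0.42 to 1.11), and sf3b4.S at 0.012 without dominant entries, 0.37 without pair 2 and 0.51 without pair 3 (range -0.98 to 0.51). The cause was not tested. List medians changed sign in 21 of 126 refits. Depth limits libraries numbered 2 most, where 3 counts are 2.76 CPM in NW.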
